A study of Mus musculus with 6 samples.

Results

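The 10 genes of the core circadian clock named Arntl (also called Bmal1), Clock, Per1, Per2, Per3, Cry1, Cry2, Nr1d1, Nr1d2 and Dbp were examined in B16F10luc2 cells, a mouse melanoma line, under static culture and under cyclic stretch. They were taken by symbol from a table of estimated RNA-seq counts for 14883 genes, numbered by Entrez Gene. All 10 members were in the table, and 9 had enough counts to be tested; Per2 did not. The 3 static samples were grown on elastic-bottomed plates that were not stretched. The 3 stretched samples were grown on the same kind of plate and stretched for 24 h, with 15% elongation along both axes at 15 cycles per minute. Both groups were the same line in serum-containing medium, with no genetic change between them. RNA was collected once per sample and no step that synchronizes cells is given in the sources used here, so a difference in clock phase and a difference in mean level cannot be told apart. The labels do not state whether replicates were separate cultures, and p-values cover no more than the sample-to-sample spread, part of which may be technical.

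The mammalian clock is a feedback loop of transcription. CLOCK and ARNTL pair, bind E-box sequences and switch on the Per, Cry, Nr1d and Dbp genes. PER and CRY proteins then return to the nucleus and inhibit the pair. NR1D1 and NR1D2 (REV-ERB alpha and beta) repress Arntl through ROR elements, which ROR proteins use to activate it, so that in rhythmic tissues Arntl RNA peaks at the opposite time of day to Nr1d1, Dbp and Per RNA. DBP, with its relatives TEF and HLF, activates genes through D-boxes, and NFIL3 represses them there.

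The promoter windows of 6 members held a match to 1 or more of these element types, and a few are printed to show what the elements look like in the genes described below. Windows ran from 250 bases before to 50 bases after the RefSeq start site (GRCm38.p6), and 9 of the 10 members, all but Per2, had 1 or more. Searched on both strands were CACGTG (E-box), CACGTT (a variant E-box), TTATGTAA and TTACGTAA (D-box), TAGGTCA and TGGGTCA (core of the ROR element) and TGACGTCA (the cyclic AMP response element). No motif contains another. Capitals mark the match, read 5′ to 3′ on the gene's strand.
Per1 E-box, 166 bases upstream, chr11:69098763-69098808, plus strand: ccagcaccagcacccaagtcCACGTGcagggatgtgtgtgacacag
Cry1 E-box, 60 bases upstream, chr10:85185089-85185134, minus strand: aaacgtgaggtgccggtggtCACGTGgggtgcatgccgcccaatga
Nr1d1 variant E-box, 28 bases upstream, chr11:98775380-98775425, minus strand: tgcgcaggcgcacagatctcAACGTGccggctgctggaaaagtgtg
Per3 D-box, 205 bases upstream, chr4:151044843-151044890, minus strand: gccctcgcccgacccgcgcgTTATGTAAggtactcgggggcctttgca
Per3 second D-box, 158 bases upstream, chr4:151044796-151044843, minus strand: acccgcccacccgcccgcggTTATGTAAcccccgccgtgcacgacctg
Arntl ROR element core, 31 bases into the transcript, chr7:113207531-113207557, plus strand: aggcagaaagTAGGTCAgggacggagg
Of all 32851 RefSeq windows, 7.15% held CACGTG, 4.68% CACGTT, 0.938% TTATGTAA and 2.61% TAGGTCA. Cry2 also held a CACGTT match, and the windows of Clock, Nr1d2 and Dbp held no match to any of the 7 motifs. The Cry1, Nr1d1 and Per3 sites lie just outside the annotated span of their own gene. The Per1 and Arntl sites lie inside it, since longer gene models start farther upstream, and each was in 1 of the 2 windows of its gene. These are letter matches and not measured binding.

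The clock genes did not move as a block. Clock, Per3 and Cry1 were higher under stretch, Arntl and Nr1d2 were lower, and Per1, Cry2, Nr1d1 and Dbp did not pass the test. A gene was called when its p from the quasi-likelihood test of edgeR, after Benjamini-Hochberg adjustment over 12377 genes, was under 0.05. With 3 of 9 tested members higher and 2 lower, the members stood against 24.9% of all tested genes called higher and 25.9% called lower, so that their share of calls was near the background of 50.9% for both directions together. The median log2 fold change was 0.03 over the 9 members and 0.0038 over all tested genes. Against a minimum change of 1.2-fold (edgeR's glmTreat), Per3 alone of the 9 passed (adjusted p = 0.0328), where 12.9% of all tested genes did, 5.49% higher and 7.38% lower. Of all calls, 49% were higher with TMM scaling and 63.2% with scaling by library size only, under which the same number of members was called (3 higher, 2 lower).

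Among the activators, the partners Clock and Arntl went in opposite directions. Clock (Entrez Gene 12753; chromosome 5, 76209868 to 76305603 in GRCm38.p6), the partner that stays nearly constant over the day in many tissues, read 89.1, 92.3 and 91.6 CPM (read counts scaled by TMM to a common library size) in static replicates 1, 2 and 3. It read 107, 109 and 104 CPM in stretched replicates 1, 2 and 3. All 3 stretched libraries lay above all 3 static ones. The mean was 91.0 ± 1.70 CPM in static and 107 ± 2.56 CPM in stretched samples (SD, n = 3 each), a log2 fold change of 0.23 (SE 0.037, edgeR adjusted p = 0.000118). With an offset per library for GC content and transcript length the value was 0.05 (edgeR adjusted p = 0.298), and the call was lost.

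Arntl (Entrez Gene 11865; chromosome 7, 113178471 to 113314126), the other partner, read 12.01, 12.2 and 13.6 CPM in static replicates 1, 2 and 3. Its stretched libraries read 10.2, 9.87 and 10.3 CPM. The groups did not overlap, and static replicate 3 was the highest of the 6. The log2 fold change was -0.32 (SE 0.078, edgeR adjusted p = 0.003), or 1.25-fold lower, and it passed in every setting tried other than the test against 1.2-fold.

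**Figure D1:**
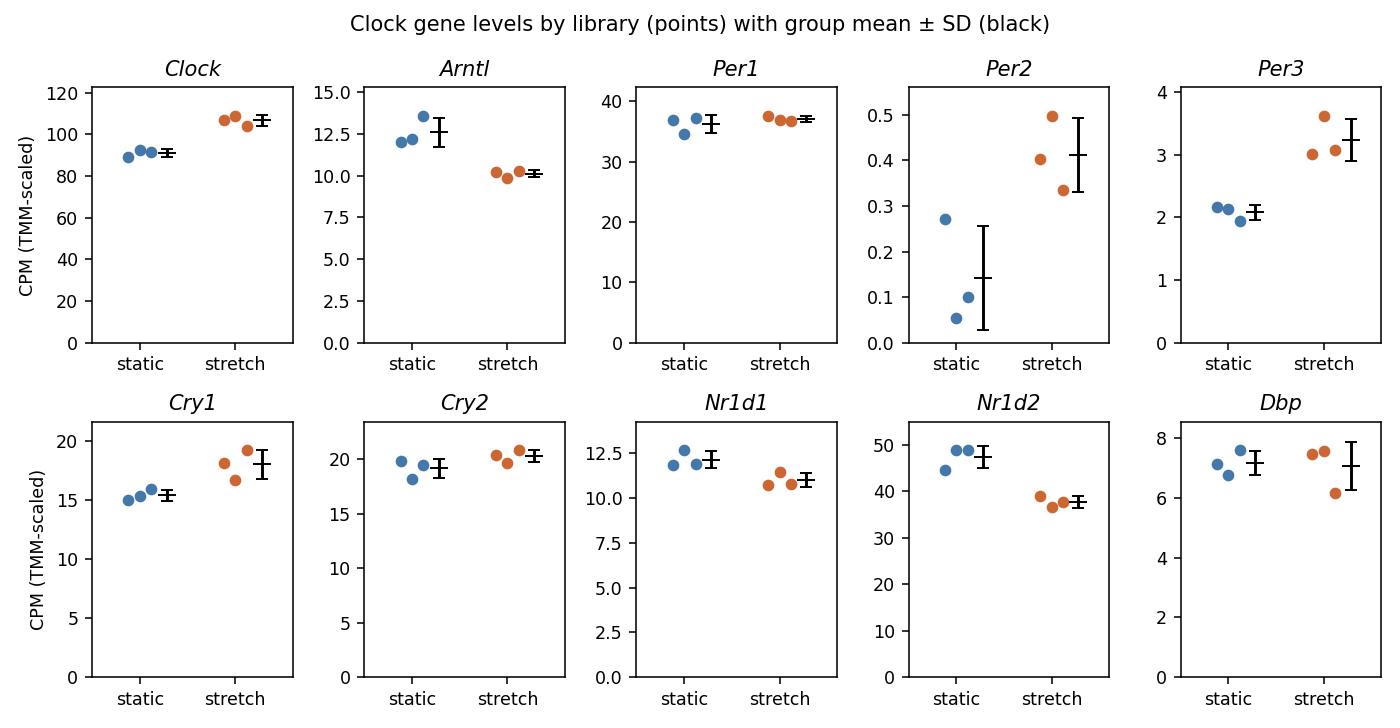
Levels of the 10 clock genes in CPM (vertical axes, linear from 0, a separate scale per gene) in the 3 static (blue) and 3 stretched (orange) libraries, with group mean ± SD in black. Clock, Per3 and Cry1 lie higher and Arntl and Nr1d2 lower in all 3 stretched libraries. Nr1d1, which was not called, also lies lower in all 3. Per2, which was not tested, lies higher in all 3 but stays under 0.5 CPM in each library.

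The Period genes encode the inhibitors that give the loop its timing, and they differed widely in level. Per3 (Entrez Gene 18628; chromosome 4, 150997018 to 151044707), which carries the pair of D-box matches printed above, read 2.17, 2.13 and 1.95 CPM in the static libraries. In stretched replicates 1, 2 and 3 it read 3.01, 3.62 and 3.07 CPM. Every stretched library was above every static one, and the fold change of 1.55 was the largest among the 9 tested members (log2 0.63, SE 0.15, edgeR adjusted p = 0.0025). These levels rest on 40 to 112 counts per library. The stricter count filter, at least 5 CPM in 3 libraries, left Per3 out.

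Per1 (Entrez Gene 18626; chromosome 11, 69095108 to 69109965), the Period gene most quickly induced by external signals, read 36.9, 34.5 and 37.2 CPM in static replicates. Stretched replicates read 37.6, 36.9 and 36.7 CPM, and the groups overlapped. The log2 fold change was 0.03, with a 95% interval of -0.07 to 0.13 (edgeR adjusted p = 0.612). With the GC content and length offset it was 0.16 and passed (edgeR adjusted p = 0.00924).

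Per2 (Entrez Gene 18627; chromosome 1, 91415977 to 91459351) was near the limit of detection, with 7, 1 and 3 counts in static replicates 1, 2 and 3 and 15, 11 and 7 counts in the stretched ones. These were 0.271, 0.0532 and 0.101 CPM against 0.403, 0.498 and 0.336 CPM. The stretched libraries were all higher than the static ones, on 11 counts in total in static and 33 in stretched samples. Fitted without a count filter, its log2 fold change was 1.45 (SE 0.52, edgeR adjusted p = 0.0334 over 14883 genes). Where leaving out a library let Per2 through the filter, it passed without stretched replicate 3 (edgeR adjusted p = 0.0358) and did not pass without static replicate 2 (0.0641). No static library reached the minimum count of 10, so Per2 entered these fits only through the stretched libraries, where it was higher. These 2 fits are therefore no support for a rise.

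The Period RNA pool was thus almost entirely Per1, and protein was not measured here. Per kilobase of the longest annotated transcript, Per1 made up 95.4 ± 0.415% of the summed Period level in static and 92.9 ± 0.773% in stretched samples (SD, n = 3 each). Per3 made up 4.28 ± 0.345% and 6.31 ± 0.638%, and Per2 under 1% in both groups (0.295 ± 0.233% and 0.826 ± 0.157%).

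The cryptochromes, the direct repressors of CLOCK and ARNTL, were at similar levels. Cry1 (Entrez Gene 12952; chromosome 10, 85131700 to 85185054), the later-peaking of the pair in rhythmic tissues, read 15.0, 15.3 and 15.9 CPM in static replicates. It read 18.1, 16.8 and 19.2 CPM in stretched replicates, all above the static ones. Its log2 fold change was 0.22 (SE 0.068, edgeR adjusted p = 0.0128). With 1 library fewer the call was lost in 2 cases, while the fold stayed close: the log2 fold change was 0.20 without static replicate 1 (edgeR adjusted p = 0.0568) and 0.18 without stretched replicate 3 (0.0601).

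Cry2 (Entrez Gene 12953; chromosome 2, 92403646 to 92434085) read 19.8, 18.2 and 19.4 CPM in static and 20.4, 19.7 and 20.8 CPM in stretched replicates. The groups overlapped, since static replicate 1 exceeded stretched replicate 2. The log2 fold change was 0.08 with a 95% interval of -0.05 to 0.21 (edgeR adjusted p = 0.284), and 0.17 with the GC content and length offset, where it passed (edgeR adjusted p = 0.0206). The RNA gene D930015M05Rik shares 23417 bases with its span and was under 1 CPM on average in both groups.

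The REV-ERB genes, repressors of Arntl, were both lower in every stretched library, but only Nr1d2 passed the test; a difference between the 2 was not tested. Nr1d2 (Entrez Gene 353187; chromosome 14, 18204056 to 18239106) read 44.6, 48.9 and 48.9 CPM in static replicates 1, 2 and 3. It read 39.0, 36.6 and 37.7 CPM in stretched replicates. The log2 fold change was -0.33 (SE 0.05, edgeR adjusted p = 7.21e-05), or 1.25-fold lower, the lowest p among the members. With the GC content and length offset it remained called.

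Nr1d1 (Entrez Gene 217166; chromosome 11, 98767932 to 98775377) read 11.8, 12.7 and 11.9 CPM in static and 10.8, 11.5 and 10.8 CPM in stretched replicates. The groups did not overlap in CPM, but the difference was small, with a log2 fold change of -0.14 and a 95% interval of -0.30 to 0.02 (edgeR adjusted p = 0.128). The annotated span of Nr1d1 shares 1075 bases with Thra, a thyroid hormone receptor gene, and reads there cannot be told apart without known strand. Thra itself rose, from 18.1 ± 1.13 to 21.7 ± 2.42 CPM (log2 0.25, edgeR adjusted p = 0.0156). Groups did not overlap for 3 members higher and 3 lower of the 9 tested, against 29% and 29.4% of all tested genes (58.5% in all).

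Dbp (Entrez Gene 13170; chromosome 7, 45705100 to 45710203), the D-box activator and in many tissues a strongly rhythmic output of the clock, read 7.13, 6.76 and 7.58 CPM in static replicates. Stretched replicates read 7.47, 7.56 and 6.14 CPM, so that the stretched group held the lowest of all 6 values. The log2 fold change was -0.02 with a 95% interval of -0.23 to 0.20 (edgeR adjusted p = 0.907), and its sign changed between settings. Its span shares 741 bases with Sphk2, a sphingosine kinase gene, which fell from 53.1 ± 2.61 to 44.5 ± 1.197 CPM (log2 -0.26, edgeR adjusted p = 0.000252).

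**Figure D2:**
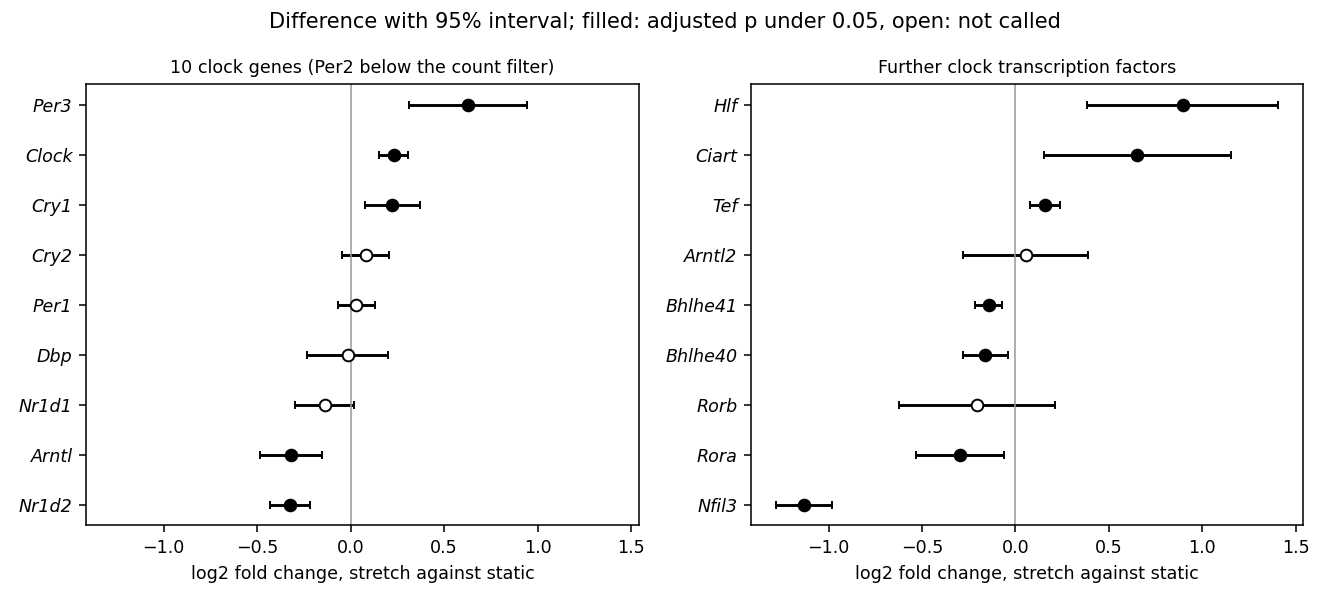
Log2 fold change of stretched against static samples (horizontal axis) for the 9 tested clock genes (left) and the 9 tested further clock transcription factors (right), with 95% intervals; filled points passed an edgeR adjusted p of 0.05. Members lie between -0.33 and 0.63, and Nfil3 at -1.13 and Hlf at 0.89 lie farthest from 0.

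Arms taken as opposite in phase did not separate clearly as scored here, with Clock counted beside Arntl. One arm was taken as Per1, Per3, Nr1d1, Nr1d2 and Dbp, which E-boxes and D-boxes drive (Per2 was not tested), and the other as Arntl and Clock. Since Clock stays nearly constant over the day in many tissues, the second arm is only partly of opposite phase. The first arm against Arntl alone was not scored or tested. In mean log2 CPM the first arm read 3.64, 3.65 and 3.66 in static replicates 1, 2 and 3. It read 3.69, 3.74 and 3.62 in stretched replicates, while Arntl was lower in every stretched library (log2 -0.32). The mean log2 CPM of the first arm minus that of the second was -1.39, -1.42 and -1.48 in static replicates 1, 2 and 3 and -1.36, -1.295 and -1.41 in stretched replicates. Stretched replicate 3 fell among the static values, and the groups overlapped. The first arm changed by 0.03 and the second by -0.04, in which Clock (log2 0.23) counted against Arntl (log2 -0.32). The difference between arms changed by 0.08 on the log2 scale between the group means, where the SD was 0.046 in static and 0.056 in stretched samples. Within both arms members moved against each other: Per3 rose while Nr1d2 fell, and Clock rose while Arntl fell. The GC content and length offset gave 0.22, and adding Nfil3 to the activator arm and Tef, Hlf, Ciart and Bhlhe41 to the other gave 0.59. Each gene counted equally within its arm, also Hlf and Ciart with few counts. Their log2 fold changes were -1.13 for Nfil3, 0.89 for Hlf, 0.65 for Ciart, 0.16 for Tef and -0.14 for Bhlhe41. Bhlhe40 (log2 -0.16) was in neither arm. Adding Cry1 to the activator arm gave -0.01, although Cry1 was kept out of both arms since it peaks between them. Summed CPM in place of mean log2 CPM gave -0.30. In that sum the activator arm was mostly Clock (91.0 CPM in static and 107 in stretched samples, beside 12.6 and 10.1 for Arntl). Size and sign of the score thus depended on how the arms were scored. No test was run on this score, since its members were chosen.

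The order of levels changed at the top. Per kilobase of transcript, static samples had Nr1d2 (10.2 ± 0.524 CPM per kb), Clock (9.34 ± 0.174) and Per1 (7.75 ± 0.323) highest, in that order and with no overlap between neighbours. Stretched samples had Clock highest (10.9 ± 0.262 CPM per kb), followed by Nr1d2 (8.09 ± 0.260) and Per1 (7.94 ± 0.103), whose values overlapped. In both groups Cry1, Cry2, Nr1d1, Dbp and Arntl followed in this order, from 5.10 to 3.15 CPM per kb in static and from 5.96 to 2.53 in stretched samples. Values of Cry1 and Cry2 and of Cry2 and Nr1d1 overlapped in static samples, and those of Nr1d1 and Dbp in stretched ones. Per3 (0.347 and 0.539 CPM per kb) and Per2 (0.0243 and 0.0707) were lowest. Levels per kilobase take the longest GENCODE M21 transcript as the length, and they would differ for a shorter isoform.

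Of the 10 further clock transcription factors counted here, 9 were tested. Among these, 3 were higher (33.3%) and 4 lower (44.4%), beside 24.9% and 25.9% of all tested genes. The median log2 fold change was -0.14, and with library size scaling 1 was lower. Nfil3, the D-box repressor and itself a target of REV-ERB repression, changed most. It read 19.5, 20.9 and 20.3 CPM in static replicates. It read 9.33, 9.60 and 8.68 CPM in stretched replicates, less than any static value by a wide margin. The fall was 2.19-fold (log2 -1.13, SE 0.07, edgeR adjusted p = 1.02e-08) and passed against 1.2-fold (edgeR glmTreat adjusted p = 8.66e-08). Its promoter window held a ROR element core 12 bases upstream of the start site, chr13:52981040-52981071, minus strand, as did Arntl's further downstream.
Nfil3 ROR element core (its reverse complement in capitals): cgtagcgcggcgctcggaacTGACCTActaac

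DBP's relatives rose. Hlf read 0.736, 0.798 and 0.537 CPM in static and 1.34, 1.22 and 1.15 CPM in stretched replicates, on 15 to 50 counts per library. Its rise was 1.86-fold (log2 0.89, SE 0.24, edgeR adjusted p = 0.00601) and passed against 1.2-fold (edgeR glmTreat adjusted p = 0.0399). Tef, with by far the highest level of the 3, rose from 76.5 ± 1.14 to 85.1 ± 2.28 CPM (log2 0.16, edgeR adjusted p = 0.00272). Per kilobase, Tef made up 81.2 ± 0.962% of the summed Dbp, Tef and Hlf level in static and 82.7 ± 1.42% in stretched samples. Ciart, an inhibitor of CLOCK and ARNTL, rose from 0.843 ± 0.133 to 1.32 ± 0.245 CPM, or 1.57-fold (edgeR adjusted p = 0.0306), and this call was lost without static replicates 1 or 3 or stretched replicates 1 or 2 (edgeR adjusted p of 0.0549 to 0.131) and in DESeq2 (adjusted p = 0.123).

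Bhlhe40 and Bhlhe41 (DEC1 and DEC2), E-box repressors, were slightly lower. Bhlhe41 read 306, 299.8 and 311 CPM in static and 279, 279 and 272 CPM in stretched replicates, with no overlap (log2 -0.14, edgeR adjusted p = 0.00244). Bhlhe40 fell from 76.5 ± 6.70 to 68.2 ± 3.41 CPM with overlapping groups (log2 -0.16, edgeR adjusted p = 0.0253), a call lost without static replicate 2 (0.0792) and without stretched replicates 1 (0.099) or 2 (0.108). Both calls were lost when scaled by library size only (edgeR adjusted p = 0.127 for Bhlhe40 and 0.0513 for Bhlhe41).

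Rora and Rorb encode activators that act through the ROR element. Rora fell from 10.4 ± 1.122 to 8.33 ± 1.37 CPM (log2 -0.30, edgeR adjusted p = 0.0364), and the call was lost without any of static replicates 1 or 2 or stretched replicates 1 or 3 (edgeR adjusted p of 0.0534 to 0.148) and with scaling by library size only (0.0939). Rorb (log2 -0.21, 95% interval -0.62 to 0.21) and Arntl2, a paralog of Arntl (log2 0.05, 95% interval -0.28 to 0.39), did not pass. Npas2, a paralog of Clock and the 1 of the 10 without a test, was not analysed here.

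**Figure D3:**
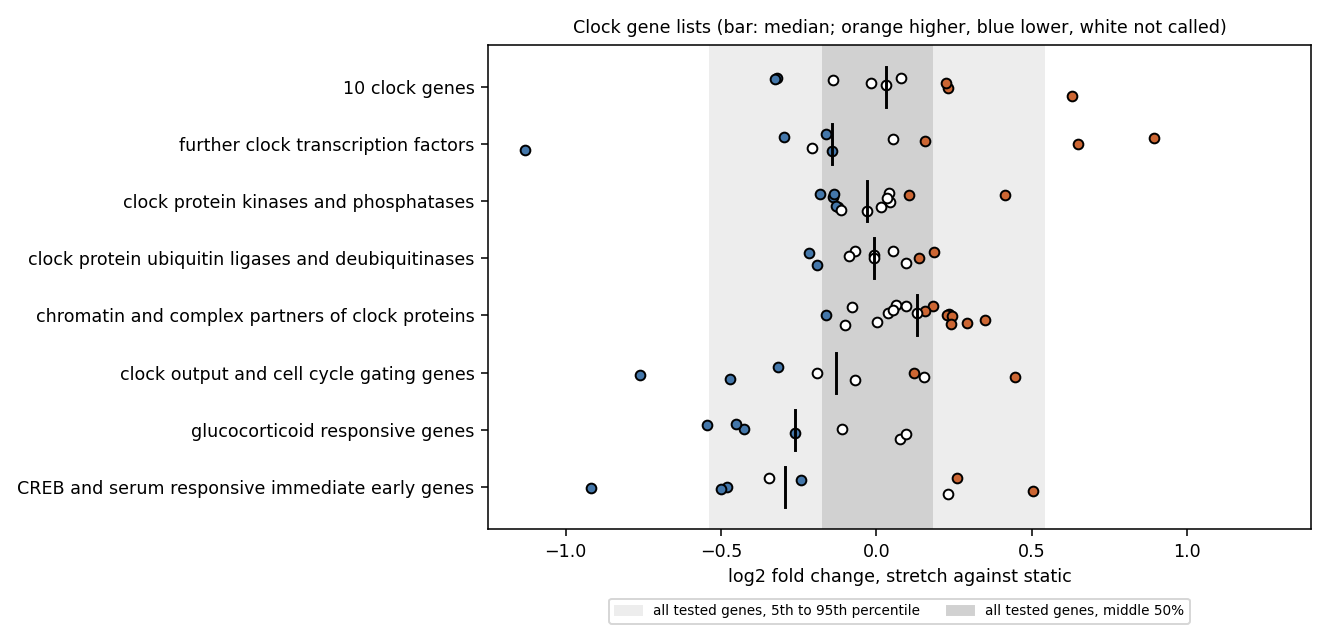
Log2 fold change of stretched against static samples (horizontal axis) for each tested gene of the 10 clock genes and of 7 further lists, with the median as a bar; orange genes were called higher, blue lower, white were not called, and grey bands give the spread of all tested genes. Medians run from -0.29 for immediate early genes to 0.13 for chromatin and complex partners.

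Kinases and phosphatases set how fast PER and CRY proteins are degraded. Of 13 tested, 2 were higher (15.4%) and 5 lower (38.5%), beside 24.9% and 25.9% of all tested genes, and the median log2 fold change was -0.03. The split depended on the scaling, with 4 higher and 1 lower when scaled by library size only, and 1 and 3 with the GC content and length offset. The casein kinases 1 delta and epsilon, which both phosphorylate PER, went apart: Csnk1e rose from 70.3 ± 4.67 to 94.1 ± 0.430 CPM (log2 0.42, edgeR adjusted p = 2.79e-06) and Csnk1d fell from 208 ± 2.78 to 189 ± 3.25 CPM (log2 -0.14, edgeR adjusted p = 0.00341). Csnk1a1, another casein kinase 1 gene, had a log2 fold change of -0.12 and Gsk3a, a glycogen synthase kinase 3 gene, one of -0.18. Csnk1d and Csnk1a1 lost their calls with library size scaling, and Csnk1d and Gsk3a with the GC content and length offset.

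Of 10 tested ubiquitin ligase and deubiquitinase genes, 2 were higher (20%) and 2 lower (20%), beside 24.9% and 25.9% of all tested genes. The median log2 fold change was -0.01, and with library size scaling 4 were higher and 1 lower. Usp7, a deubiquitinase of CRY proteins, had a log2 fold change of 0.19 and Skp1, a ligase scaffold subunit, one of 0.14, which was 0.07 with the GC content and length offset and did not pass there (edgeR adjusted p = 0.118). Ddb1, a ligase adaptor, fell with a log2 fold change of -0.22. Usp2, a deubiquitinase gene under E-box control, fell by 0.19 on the log2 scale (edgeR adjusted p = 0.0169), and its call was lost after thinning all libraries to the smallest (0.0617), with library size scaling (0.102), with the GC content and length offset (0.124), without static replicate 1 (0.0953) and without stretched replicate 2 (0.0763).

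Of 17 tested chromatin and complex partners of clock proteins, 8 were higher (47.1%) and 1 lower (5.88%), beside 24.9% and 25.9% of all tested genes, and the median log2 fold change was 0.13. Against 1.2-fold, 1 of the 17 passed in edgeR's glmTreat, in the higher direction. Tipin, the partner of Timeless at the replication fork, rose from 60.6 ± 2.02 to 77.4 ± 1.89 CPM (log2 0.35, edgeR adjusted p = 5.26e-06). Ezh2, a histone methyltransferase gene, rose by 0.24 and Dhx9, an RNA helicase gene, by 0.25 on the log2 scale. Rack1, a ribosome-associated scaffold that joins the ARNTL complex, was the member that fell (log2 -0.16, edgeR adjusted p = 0.00973), a call lost with library size scaling (0.054) and without stretched replicates 1 (0.0576) or 2 (0.0541).

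Of 8 genes of clock output and of the cell cycle steps the clock gates, 2 were higher (25%) and 3 lower (37.5%). Beside these stood 24.9% and 25.9% of all tested genes, and the list median was log2 -0.13. Cdkn1a, which encodes the p21 brake on the cell cycle and is a REV-ERB target, and Por, the cytochrome P450 reductase gene, fell by 0.76 and 0.47 on the log2 scale. Tspan4, a tetraspanin gene, fell by 0.32. Ppargc1a, a coactivator of ROR proteins on Arntl, rose from 33.9 ± 2.37 to 46.6 ± 2.91 CPM (log2 0.45, edgeR adjusted p = 1.82e-05).

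Signals that reset clocks in culture act through glucocorticoid, cyclic AMP and serum responsive genes. Of 7 tested glucocorticoid responsive genes 4 were lower (57.1%, beside 25.9% of all tested genes) and none higher in edgeR (median log2 -0.26; at an unadjusted p under 0.05 still 4 and 0). DESeq2 called 2 lower and 0 higher, and 1 was higher with library size scaling, with the GC content and length offset or without static replicate 2. Klf9, a clock-linked zinc finger factor, fell from 9.40 ± 0.513 to 6.44 ± 0.127 CPM, and Tsc22d3 (GILZ) from 14.8 ± 0.810 to 11.02 ± 0.732 CPM. Cebpd fell with a log2 fold change of -0.45 (edgeR adjusted p = 0.0237), and its call was lost in DESeq2 (adjusted p = 0.0999), without static replicates 1 (0.0905) or 3 (0.05001) and without stretched replicate 2 (0.0896). Of 8 immediate early genes 4 were lower (50%) and 2 higher (25%), beside 25.9% and 24.9% of all tested genes (median log2 -0.29). Egr1 fell from 4.73 ± 0.487 to 2.56 ± 0.269 CPM, Junb from 19.0 ± 0.672 to 13.4 ± 0.741 CPM and Crem, whose product ICER represses cyclic AMP responses, from 14.1 ± 1.10 to 10.01 ± 0.663 CPM. Sik1, a kinase induced by cyclic AMP that dampens it, rose from 7.80 ± 0.302 to 11.1 ± 0.457 CPM.

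**Figure D4:**
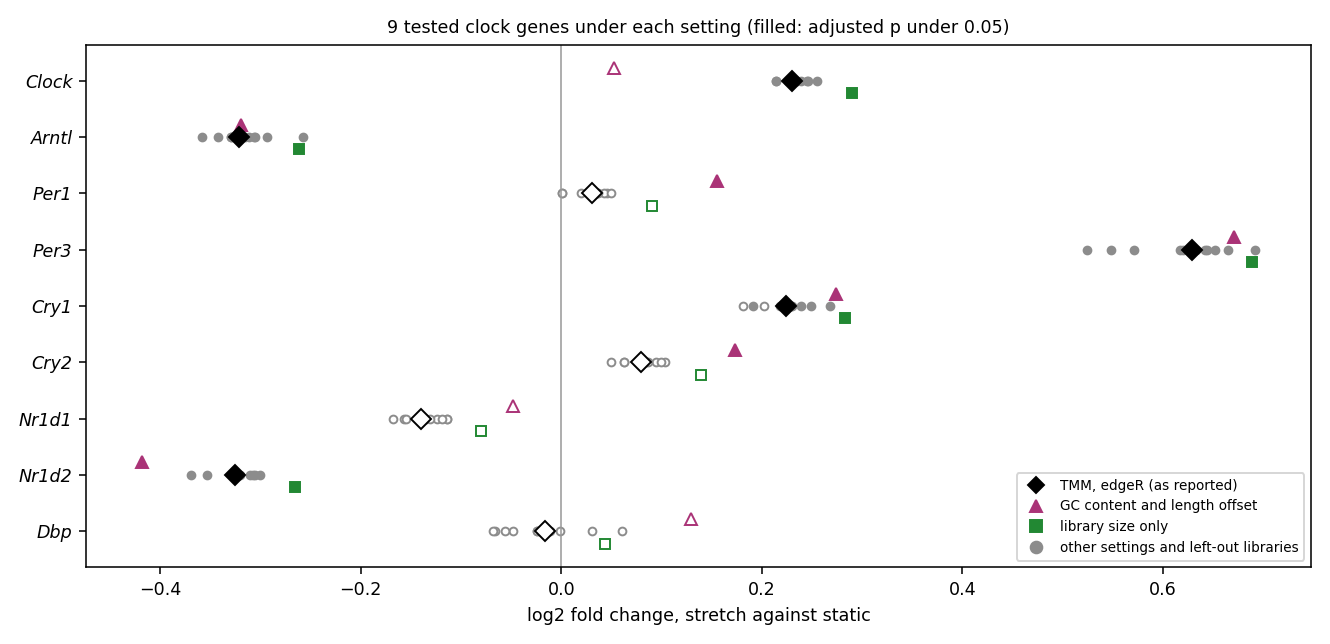
Log2 fold change of the 9 tested clock genes (horizontal axis) as reported (black diamonds), with the GC content and length offset (purple triangles), with library size scaling (green squares) and under the other settings and left-out libraries (grey); filled symbols passed an adjusted p of 0.05. Per3, Arntl and Nr1d2 keep their side of 0 and stand well away from it, Clock moves to 0.05 with the offset, and Dbp lies on both sides of 0.

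Total counts ran from 19469286 to 36351400 per library. Replicates of a group differed by more than sampling noise (chi-square per degree of freedom of 3.35 to 7.64 between static libraries and 1.88 to 2.29 between stretched ones). All 7 melanocyte lineage markers checked were in the table, at a summed 22410 to 24790 CPM in static and 19860 to 20450 CPM in stretched libraries. Fibroblast markers (5 of 6 in the table) summed to 13.3 to 18.4 and 16.0 to 17.3 CPM, and leukocyte markers (2 of 6, without Ptprc) to 1.90 to 2.34 and 1.54 to 1.88 CPM; none of 5 keratinocyte markers was in the table. Of the 3 tested fibroblast markers, Col1a1 was lower (log2 -0.39, edgeR adjusted p = 0.0105), Pdgfra higher (log2 0.55, edgeR adjusted p = 0.0229), and Col1a2 did not pass. Of the melanocyte markers the pigment genes Tyrp1, Dct and Pmel were lower (log2 -0.31, -0.09 and -0.29), and Tyr, Mlana and Sox10 did not pass. Mitf, the melanocyte master regulator, was higher, at 325 ± 13.01 and 422 ± 5.65 CPM (log2 0.37, edgeR adjusted p = 1.1e-06). The lower melanocyte sum moved with stretch, and its part in the clock results was not tested. In bulk RNA, fewer cells with a transcript and less of it per cell cannot be told apart.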

How the data were processed

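RNA from 3 static and 3 stretched samples was sequenced, and 1 table of whole-number estimated counts per gene was deposited by the authors without scaling. The submitters' processing notes name Salmon 1.4.0, mm10 and GRCm38 with no role. Index, gene-level step, rounding and strand: not given in the sources used here. Salmon divides reads among similar transcripts by a model, which makes paralogs less certain. Every gene had at least 10 counts over the 6 libraries.

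Symbols came from RefSeq (GRCm38.p6), which matched 14875 of 14883 numbers. In edgeR 4.0.16 (R 4.3.3), filterByExpr (minimum count 10) left 12377 genes, libraries were scaled by TMM (factors 0.966 to 1.02), and group was the only term of the quasi-likelihood fit, two-sided, with Benjamini-Hochberg adjustment over all tested genes. CPM use TMM-scaled library sizes, and log2 CPM a prior count of 0.5. Folds of low genes are shrunk slightly by edgeR's prior count. An exact test of 3 against 3 samples cannot go below p = 0.1. The fit was tested on simulated data.

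The members and lists were chosen with earlier results of these data known. Named genes were the members, the tested further clock factors and, per list, the 3 called genes of lowest p in the direction with more calls and 1 in the other (both directions where calls tied); 2 genes these rules name are not reported here, and the list counts leave 1 of them out. Alternatives were RLE, upper quartile and library size scaling, no filter or at least 5 CPM in 3 libraries, DESeq2 1.42.0, limma-voom (limma 3.58.1), glmTreat, the replicate block, a GC content and length offset (spline with 5 degrees of freedom, GENCODE M21 transcripts, known for 99.2% of tested genes), thinning to 19469286 counts and each library left out.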

Additional observations from a re-analysis of the deposited data

How the results depend on the processing

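Arntl, Per3 and Nr1d2 kept their direction and call under every scaling, test and left-out library that tested them, except that Arntl and Nr1d2 did not pass against 1.2-fold; Clock lost its call there and with the GC content and length offset (0.0523, adjusted p = 0.2978), and the cause was not tested. Against 1.2-fold, 1 member was higher and 0 lower, as were 679 and 913 of all tested genes (5.49% and 7.38%). The further list genes gave 5 higher and 8 lower, from 7 lists with 9, 13, 10, 17, 8, 7 and 8 genes tested. Calls were fewer since that null asks for a larger change. At an unadjusted glmTreat p under 0.05, 1 member (Nr1d2) was lower, and DESeq2 and limma-voom, without that null, called 2 lower. Scaling by library size only called 4117 of 12377 genes higher and 2401 lower, so that 63.2% of calls were higher against 49% with TMM. It moved the genes of the same 7 lists from 19 higher and 23 lower to 28 and 13. With TMM, 24.9% of all tested genes were called higher and 25.9% lower. The log2 fold change of Dbp turned positive with the GC content and length offset (0.1293), with library size scaling (0.0432), and without static replicate 3 (0.03009) or stretched replicate 3 (0.06004), the range over left-out libraries being -0.06768 to 0.06004. That of Arntl2 turned negative with the offset (-0.02304) and without static replicate 2 (-0.02056) or stretched replicate 1 (-0.04891), the range being -0.04891 to 0.1567. The change in the difference between the arms was 0.2236 with the offset and 0.5904 with Nfil3 added to the activator arm and Tef, Hlf, Ciart and Bhlhe41 to the other; it was -0.01294 with Cry1 in the activator arm and -0.3007 from summed CPM, and ran from 0.0468 to 0.1028 when a library was left out. With each library left out in turn, 2 to 3 members were called higher and 2 lower. Without stretched replicate 3, Per2 was counted in place of Cry1, having passed the filter only through the stretched libraries. Of 238 counts of calls per list, direction and setting, 191 stayed within 1.5 times those reported, and 26 of the other 47 differed by 1 gene. With the replicate block, 3 members were called higher and 2 lower, and 2924 and 3043 of all genes; same-numbered samples had deviations correlated at 0.00757, 0.02741 and -0.05638, so the numbers were not taken as pairs.

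Among the members and named list genes, precision is limited by counts for Per2, Hlf, Ciart, Rorb, Pdgfra, Cebpd, Per3 and Arntl2, with at most 116 per library.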

Other observations

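Among 12368 tested genes outside the members, genes whose log2 CPM, centred over the 6 libraries, lay close to Clock included Ric1 and Gtf2h3, a subunit gene of the general transcription factor TFIIH, with root mean square differences of 0.014 and 0.015. Their log2 fold changes were both 0.23, as for Clock. Closest to Nr1d2 were Aldh7a1, an aldehyde dehydrogenase gene, Fzd2, a Wnt receptor gene, and Slc45a3, with differences of 0.028, 0.029 and 0.031 and log2 fold changes of -0.33, -0.37 and -0.30. This is a description of 6 libraries in 2 groups, which many genes separate.

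Within families, the share of the summed level per kilobase shifted a little. Cry1 made up 51.4 ± 1.38% of the cryptochrome level in static and 53.8 ± 1.00% in stretched samples (SD, n = 3 each), and Nr1d2 69.5 ± 0.912% and 66.7 ± 1.45% of the REV-ERB level. No test was run on these shares.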
